A study of Mus musculus with 4 samples.

Results

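The circadian clock genes described here are Per1, Per2, Per3, Cry1, Cry2, Nr1d1, Nr1d2, Dbp, Ciart and Clock. They were chosen by symbol, and all 10 were found in the deposited table of 19991 genes with symbols, out of 57186 genes counted in the series. RNA was sequenced from whole mouse uterus on gestational day 4, in 2 libraries from Prss29Cre/Cre;Pgrf/f mice (Pgr gecKO, the knockout) and 2 from wild-type mice (the control). In the knockout both Prss29 alleles, whose promoter is active in uterine glands, drive Cre, and both alleles of Pgr, the progesterone receptor gene, are floxed. The Cre, the altered Prss29 locus and the floxed Pgr therefore differ together between the groups and cannot be told apart. The labels give no strain, age or hour of collection, and do not say whether a library holds 1 animal. P-values therefore measure the spread between these libraries, which may be technical in part.

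The mammalian clock is a feedback loop of transcription. CLOCK or its relative NPAS2 pairs with BMAL1 and switches on genes that carry E-boxes, among them the Per and Cry genes, whose proteins then repress the pair. Nr1d1 and Nr1d2 (REV-ERB alpha and beta) repress Bmal1, which ROR receptors activate, and Dbp and its relatives act on D-boxes against the repressor Nfil3. In tissues with a running clock Bmal1 and Npas2 RNA peak at nearly the opposite time of day to Dbp, Nr1d1 and the Per genes. Cry1 RNA peaks later than Dbp and Nr1d1. Clock itself changes little over the day in most tissues. The comparison of knockout with control asks whether uterine RNA of these genes differs when the receptor is deleted in glands, and the library-by-library values show how far single libraries differed.

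The promoters of members were searched for E-boxes, D-boxes and ROR elements as a description. No expression comparison below was split by element. Sequences are from RefSeq, build GRCm38.p6, which differs from the GRCm39 build of the files. The table held 9 of the 10 members, all but Per2. The 250 bases before each listed start were searched on both strands for the E-box CACGTG, the related CACGTT, the D-box TTANGTAA and the 2 ROR element cores TAGGTCA and TGGGTCA. Positions count back from the listed start, where -1 is the last base before it. Capitals mark the matches to CACGTG in Ciart, Per1 and Cry1 and to TTANGTAA in Per3.
Ciart, chr3:95882259-95882363, minus strand: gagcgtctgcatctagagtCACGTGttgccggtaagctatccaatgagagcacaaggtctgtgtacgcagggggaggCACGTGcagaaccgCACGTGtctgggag
Per1, chr11:69098739-69098828, plus strand: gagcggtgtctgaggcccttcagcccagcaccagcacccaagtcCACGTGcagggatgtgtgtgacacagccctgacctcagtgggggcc
Cry1, chr10:85185085-85185174, minus strand: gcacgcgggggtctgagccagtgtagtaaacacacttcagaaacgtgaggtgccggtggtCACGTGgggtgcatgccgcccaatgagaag
Per3, chr4:151044796-151044890, minus strand: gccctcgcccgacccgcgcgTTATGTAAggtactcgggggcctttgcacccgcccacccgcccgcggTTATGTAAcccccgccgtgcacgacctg

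Ciart held 3 E-boxes, with first bases at -116, -58 and -44, as did 0.0609% of all 32851 promoter windows of this length. Per1 and Cry1 held 1 each, at -166 (in 1 of the 2 listed starts of Per1) and -60, against 6.02% of windows with at least 1. Per3 held 2 D-boxes, at -205 and -158, against 0.0731% of windows with at least 2, and 2.06% held at least 1. CACGTT, found in 3.85% of windows, matched once in Cry1, at -79, once in Cry2, at -166, and once in Nr1d1, at -28. None of these motifs was in the windows of Nr1d2, Dbp or Clock. TAGGTCA, in 2.23% of windows, and TGGGTCA, in 3.24%, matched in no member, and TAGGTCA matched once in the window of Nfil3, at -12. These matches are descriptions of the letters in these windows.

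The libraries held 31901278 and 29932153 counts in knockouts 1 and 2, and 35149834 and 33843256 in controls 1 and 2. Values below are CPM, that is, counts relative to each library's total after TMM scaling, unless TPM, which also divides by gene length, is named. Prss29 had 0 and 0 counts in the knockouts, against 1524 and 190 in the controls. Pgr had 130.1 and 146.2 CPM in the knockouts and 140.5 and 138.6 CPM in the controls, a whole-tissue value that does not check a deletion in glands. The 6 uterine markers Hoxa10, Hoxa11, Hoxd10, Emx2, Esr1 and Pgr summed to 1535 and 1325 CPM in the knockouts and 1304 and 1402 CPM in the controls. Marker RNA of some cell types differed between the libraries of 1 group. The 10 smooth muscle markers summed to 7685 and 11630 CPM in knockouts 1 and 2, and to 8955 and 3371 CPM in controls 1 and 2. The 10 stromal markers summed to 7824 and 8952 CPM in the knockouts and to 13296 and 6768 CPM in the controls. The 8 gland markers summed to 68.8 and 96.8 CPM in the knockouts, against 218.6 and 148.2 CPM in the controls, and 7 of 8 were lower in both knockouts, beside 13.1% of all genes tested. Among the 7 was Prss29, whose locus is altered in the knockout, so it is no independent sign of gland RNA. Foxa2 was among them narrowly, at 13.51 CPM in knockout 1 against 13.53 CPM in control 1. Cxcl15, the exception, had 35.7 and 72.6 CPM in the knockouts, most of their sums, and 29.5 and 38.6 CPM in the controls. The 10 leukocyte markers summed to 325.4 and 372.9 CPM in the knockouts and 402.1 and 602.6 CPM in the controls. Of these, 4 of 10 were lower in both knockouts, beside 13.1% of all genes tested. The 8 adipocyte markers summed to 34.1 and 77.1 CPM in knockouts 1 and 2 and 36.4 and 57.2 CPM in controls 1 and 2. Among them Adipoq was at 0 and 5.17 CPM in knockouts 1 and 2 and at 0 and 0.912 CPM in controls 1 and 2. In whole tissue, fewer cells of a type and less RNA per cell cannot be told apart.

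No clock gene passed the test between knockout and control. Per2 was the member with the largest fold change, and its excess in the knockout lay mostly in 1 of the 2 libraries. In 9 of 10 members, among them Per2, Per3, Dbp and Cry1, a log2 gap between the libraries of a group exceeded the fold change between the groups. By edgeR's quasi-likelihood test with Benjamini-Hochberg adjustment, 0 of 10 members passed at an adjusted p of 0.05, beside 0.00477% of 20950 genes tested (1 gene, higher in the knockout). At an unadjusted p under 0.05 it was 0 of 10 members, beside 3.01% of all genes. DESeq2 and limma-voom also called 0 of 10, with DESeq2 calling 0.392% of genes. The smallest unadjusted p among members was 0.0744, for Per2, and every adjusted p was 0.99998. Log2 fold changes, knockout over control, were above 0 in 8 members and below 0 in 2. Over all 20950 genes tested, 10696 were above 0 and 10254 below. The median was 0.28 in the members, beside 0.0063 over all genes tested. In simulated counts of this comparison, over 20440 genes, edgeR recovered 98 of 100 genes changed 8-fold and 3 of 100 changed 2-fold. A change of 2-fold was therefore rarely detectable with 2 libraries a group.

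**Figure D1:**
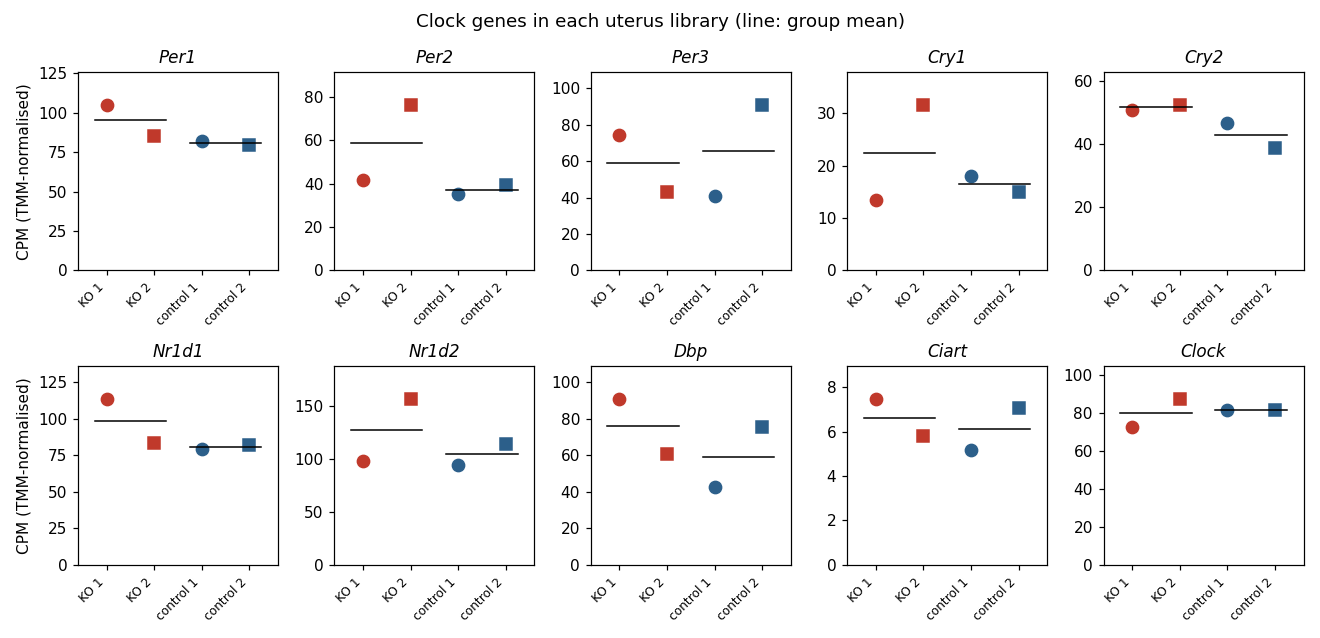
TMM-normalised CPM of each of the 10 clock genes (y axis, from 0, own scale per gene) in knockout 1 and 2 (red) and control 1 and 2 (blue), with a line at each group mean. Per2 and Cry1 stand out in knockout 2 (76.2 and 31.5 CPM), while Per3 is low in knockout 2 and control 1 (42.9 and 40.8 CPM).

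Among the period genes, the repressors that pair with CRY proteins, each gene ordered the libraries differently. Per2 had 41.6 and 76.2 CPM in knockouts 1 and 2, against 35.3 and 39.2 CPM in controls 1 and 2. Knockout 2 was far above the other 3 libraries, knockout 1 lay just above control 2, and the groups did not overlap. The fitted log2 fold change was 0.66 (SE 0.31, 95% interval −0.085 to 1.40). Without knockout 2 it was 0.16, and without knockout 1 it was 1.03.

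Per1, the period gene that also responds quickly to steroid and cAMP signals, had 104.8 and 85.4 CPM in the knockouts, against 82.1 and 79.3 CPM in the controls. Knockout 1 was highest and the other 3 libraries lay close together. Its log2 fold change was 0.24 (SE 0.21, interval −0.27 to 0.74), and 0.083 without knockout 1. Per3, which is not needed for rhythms in mice, had 74.7 and 42.9 CPM in knockouts 1 and 2, against 40.8 and 90.9 CPM in controls 1 and 2. Each group held 1 high and 1 low library, so the groups overlapped fully, and the log2 fold change was −0.16 (interval −1.18 to 0.85). Knockout 1 exceeded knockout 2 by a ratio of 1.74 with a 95% exact binomial interval of 1.62 to 1.87. Control 1 stood at 0.449 of control 2, with an interval of 0.421 to 0.478. Both gaps were larger than counting error, which is all that these intervals cover.

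The cryptochrome genes encode the direct repressors of CLOCK and BMAL1. Cry1 had 13.4 and 31.5 CPM in knockouts 1 and 2, against 18.0 and 14.9 CPM in controls 1 and 2. The 2 knockouts held both the lowest and the highest value, the ratio of knockout 1 to knockout 2 being 0.425 (0.378 to 0.476). The log2 fold change of 0.45 (interval −0.55 to 1.44) became −0.29 without knockout 2. Cry2 was steadier, at 50.9 and 52.5 CPM in the knockouts and 46.8 and 39.0 CPM in the controls. Both knockouts lay above both controls, by a log2 fold change of 0.27 (SE 0.21, interval −0.24 to 0.78). With TMM scaling, Cry2 was the only member in which neither within-group gap on the log2 scale exceeded the fold change between groups. The margin was narrow, at 0.265 between the controls against 0.270 between the groups. The other 9 of 10 had a larger gap within a group. Exons of Cry2 overlap those of a transcript on the other strand, D930015M05Rik, and the strand setting of the counting is not given in the sources used here.

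Nr1d1 and Nr1d2, which encode the haem-binding repressors of Bmal1, peaked in different knockout libraries. Nr1d1 had 113.4 and 83.1 CPM in knockouts 1 and 2, against 79.3 and 81.8 CPM in controls 1 and 2. Knockout 1 was high and the other 3 libraries were within a few CPM of each other. Nr1d2 had 97.9 and 156.5 CPM in knockouts 1 and 2, against 94.6 and 114.6 CPM in controls 1 and 2. Here knockout 2 was high and knockout 1 lay between the controls. Log2 fold changes were 0.29 for Nr1d1 (interval −0.27 to 0.84) and 0.28 for Nr1d2 (interval −0.39 to 0.96). Without knockout 1 the value for Nr1d1 was 0.047, and without knockout 2 that for Nr1d2 was −0.091. Exons of Nr1d1 share 263 bases with Thra, the thyroid hormone receptor alpha gene, on the other strand. Thra had 153.6 and 117.4 CPM in the knockouts and 100.9 and 118.3 CPM in the controls, so knockout 1 was highest for both genes. Its part in the Nr1d1 counts was not tested.

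Dbp and Ciart are output genes that follow CLOCK and BMAL1 closely. DBP is a transcription factor of D-boxes, and Ciart (CHRONO) encodes a further repressor of the loop. Dbp had 90.7 and 60.9 CPM in knockouts 1 and 2, against 42.8 and 75.7 CPM in controls 1 and 2. The groups overlapped, since control 2 exceeded knockout 2, and the log2 fold change was 0.36 (SE 0.33, interval −0.44 to 1.15). Without control 1 it was 0.015, and without control 2 it was 0.82.

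Dbp shares 539 exon bases with Sphk2, a sphingosine kinase gene on the other strand. Sphk2 had 120.1 and 81.1 CPM in the knockouts and 74.6 and 109.8 CPM in the controls, the same order of libraries as Dbp, and its part in the Dbp counts was not tested. Ciart, the promoter with 3 E-boxes, had 7.47 and 5.81 CPM in the knockouts, against 5.18 and 7.07 CPM in the controls. It too ordered the libraries as knockout 1, control 2, knockout 2 and control 1, from high to low. Its log2 fold change was 0.12 (interval −0.73 to 0.97). Clock, the activator subunit, had 72.5 and 87.2 CPM in the knockouts and 81.7 and 81.8 CPM in the controls. The controls nearly coincided and lay between the knockouts, with a log2 fold change of −0.034 (interval −0.53 to 0.46).

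**Figure D2:**
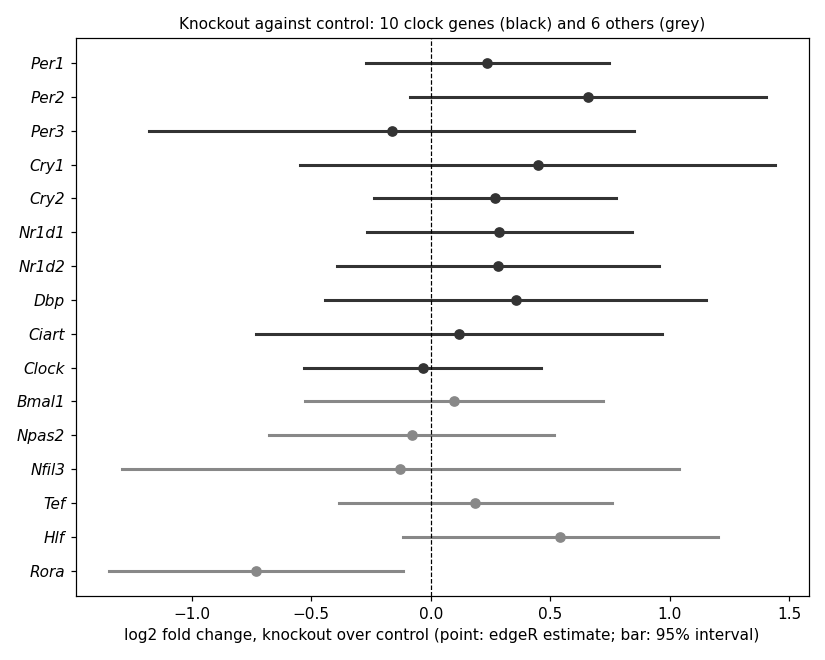
Log2 fold change of knockout over control (x axis; points, edgeR estimates; bars, 95% intervals) for the 10 clock genes in black and for Bmal1, Npas2, Nfil3, Tef, Hlf and Rora in grey. Every black interval includes 0, and Per2 lies furthest from it at 0.66.

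Both knockout libraries lay above both controls in 4 of 10 members on the CPM scale, Per1, Per2, Cry2 and Nr1d1, beside 12.2% of all genes tested. None lay below in both, beside 13.1%, and groups were apart in either direction in 25.3% of all genes. That count depended on the scaling. In the authors' TPM values Per2 and Cry2 remained above in both, 2 of 10 beside 9.44% of the genes in that table, and Clock lay below in both, 1 of 10 beside 14.3%. With 2 libraries against 2, the smallest two-sided p of an exact permutation test is 0.333, so no single gene can pass by that test.

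Per length, the REV-ERB genes and Dbp had the highest group means. Nr1d1 averaged 99.6 ± 31.5 TPM in the knockout and 83.8 ± 1.97 TPM in the control (SD, n = 2 each). Dbp averaged 79.2 ± 29.7 TPM in the knockout and 63.5 ± 24.98 TPM in the control, and Nr1d2 averaged 71.3 ± 16.3 TPM in the knockout and 62.0 ± 8.48 TPM in the control. In the knockout, differences among these 3 were within their spread. In the control, Nr1d1 lay above Nr1d2 and Dbp in both libraries, at 82.5 and 85.2 TPM. Nr1d2 had 56.0 and 68.0 TPM in controls 1 and 2, and Dbp had 45.8 and 81.1 TPM. Per1 followed at 52.5 ± 12.8 TPM in the knockout and 45.9 ± 1.05 TPM in the control, within the spread of Dbp. It exceeded Nr1d2 in knockout 1, at 61.5 against 59.8 TPM, and Dbp in control 1, at 46.7 against 45.8 TPM. Per2, Cry2, Cry1, Per3 and Clock came next, between 17.8 and 30.4 TPM in the knockout and between 15.8 and 22.0 TPM in the control. By group mean Per2 led these in the knockout and Per3 in the control, but neither led in both libraries of its group. In knockout 1 Per2 had 23.5 TPM, below Cry2 at 26.6 TPM. In control 1 Per3 was the lowest of these genes, at 13.6 TPM, and Cry2 had 23.7 TPM. Ciart was lowest in both, at 9.14 ± 2.52 TPM in the knockout and 8.68 ± 1.90 TPM in the control.

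Considered library by library, no library was high for all clock genes. Knockout 1 had the highest value of Per1, Nr1d1, Dbp and Ciart and the lowest of Cry1 and Clock, on both the CPM and the TPM scale. Knockout 2 had the highest Per2, Cry1 and Nr1d2. Control 2 had the highest Per3 and the lowest Cry2. Control 1 had the highest value of no member and the lowest of Per2, Nr1d2, Dbp and Ciart.

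The median absolute difference between knockouts 1 and 2 over the 10 members was 0.51 on the log2 CPM scale, beside 0.33 over the 13319 genes that averaged 5 CPM or more. Between controls 1 and 2 it was 0.27, beside 0.26. In 6 of 10 members the gap between library 1 and library 2 ran in opposite directions in the groups. For Per3, Dbp and Ciart it was 0.80, 0.57 and 0.36 for knockout 1 minus knockout 2 and −1.16, −0.82 and −0.44 for control 1 minus control 2. For Cry1, Cry2 and Nr1d1 it was −1.23, −0.044 and 0.45 for the knockouts and 0.27, 0.27 and −0.045 for the controls. Opposite gaps were also the tendency over all 20950 genes tested, with Pearson r = −0.44 across genes, which are not independent replicates. For Per2 and Nr1d2 they ran in the same direction, −0.87 and −0.68 for the knockouts and −0.15 and −0.28 for the controls.

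Smooth muscle markers were lower in control 2 than in control 1, by a median of 1.28 log2 units, and lower in knockout 1 than in knockout 2, by a median of 0.62. Control 2 and knockout 1 were also the libraries with more Per3, Dbp and Ciart RNA in their groups. The 10 epithelial markers summed to 1567 and 1889 CPM in knockouts 1 and 2 and to 1534 and 1851 CPM in controls 1 and 2. Of these, 4 of 10 were lower in both knockouts, beside 13.1% of all genes tested, and 0 were higher, beside 12.2%. Cldn4 was among the 4 by a narrow margin, at 77.96 CPM in knockout 1 against 78.32 CPM in control 1. The epithelial markers peaked in different libraries. Krt8, Krt19 and Cldn7 were highest in knockout 2, at 408.3, 339.1 and 195.5 CPM, and Elf3 in knockout 1. Cdh1 and Epcam were highest in control 1, and Krt18, Cldn4, Grhl2 and Esrp1 in control 2. Knockout 2, the library with the most Per2, Cry1 and Nr1d2 RNA, also had the most of the adipocyte markers Cfd, Adipoq and Cidec. Lpl, the most abundant adipocyte marker, was instead highest in control 2, at 47.6 CPM against 35.1 CPM in knockout 2. Cfd was at 0.0302 and 18.1 CPM in knockouts 1 and 2 and 0.144 and 2.42 CPM in controls 1 and 2. The part of tissue makeup and of the hour of collection in these gaps was not tested.

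**Figure D3:**
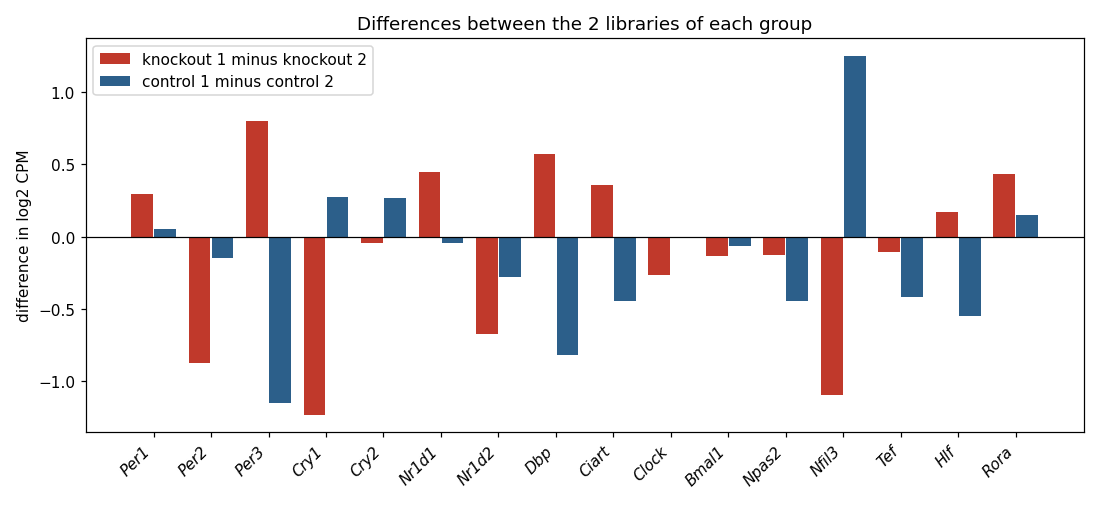
Difference in log2 CPM (y axis) between knockout 1 and knockout 2 (red bars) and between control 1 and control 2 (blue bars) for the 10 clock genes and for Bmal1, Npas2, Nfil3, Tef, Hlf and Rora. Per3, Dbp, Ciart and Nfil3 have bars of opposite sign in the groups, while Per2 and Nr1d2 are negative in both.

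Genes of the activating and D-box arms outside the 10 members were read from the same fit. Of 11 such transcription factor genes 0 passed in edgeR, in either direction, and 1 of 11 had an unadjusted p under 0.05. Their median log2 fold change was −0.13. Bmal1, the partner of CLOCK and the usual opposite of Dbp in time, was nearly level at 14.3 and 15.6 CPM in the knockouts and 13.6 and 14.3 CPM in the controls. Npas2, which can stand in for CLOCK, had 27.5 and 30.1 CPM in the knockouts and 25.8 and 35.1 CPM in the controls.

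Nfil3 (E4BP4), the repressor at D-boxes, varied widely within groups, with 28.4 and 60.9 CPM in knockouts 1 and 2, against 68.7 and 28.8 CPM in controls 1 and 2. The low libraries of Nfil3 were the high libraries of Per3, Dbp and Ciart. Tef and Hlf, the activating relatives of Dbp, had log2 fold changes of 0.19 and 0.54, and neither passed. Hlf was at 30.9 and 27.4 CPM in the knockouts and 16.2 and 23.8 CPM in the controls. Rora, an activator of Bmal1, was the gene with the unadjusted p under 0.05 (0.0263, adjusted p = 0.99998 in edgeR). It had 22.2 and 16.4 CPM in the knockouts, against 33.6 and 30.3 CPM in the controls, groups that did not overlap. Bhlhe40, a repressor at E-boxes, had a log2 fold change of −0.31 (interval −0.90 to 0.29).

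Regulators of clock proteins and rhythmic outputs gave no call either. Of 14 genes for kinases, ubiquitin ligases and cofactors, 0 passed in edgeR and 0 had an unadjusted p under 0.05, with 7 above and 7 below 0. The 3 with the smallest p were Timeless, Btrc and Fbxl21. Timeless, which in mammals acts mainly at replication forks, had 28.6 and 18.4 CPM in the knockouts, against 41.3 and 33.5 CPM in the controls, with a log2 fold change of −0.67 (interval −1.36 to 0.014). Btrc, a ligase subunit that marks PER proteins for breakdown, had 26.3 and 24.6 CPM in the knockouts and 32.8 and 32.0 CPM in the controls. Fbxl21, a ligase subunit for CRY proteins, had 2.96 and 11.7 CPM in the knockouts and 5.56 and 3.99 CPM in the controls.

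Of 10 rhythmic output genes 0 passed in edgeR and 0 had an unadjusted p under 0.05. Noct, a phosphatase gene with rhythmic RNA, had 49.9 and 31.7 CPM in the knockouts and 53.6 and 65.0 CPM in the controls. The log2 fold changes of the cell cycle kinase gene Wee1 and of Tspo were −0.32 and 0.22. Of 10 genes known to respond to steroid hormones or stress, 0 passed in edgeR and 0 had an unadjusted p under 0.05. Tsc22d3 (GILZ), a glucocorticoid target, had 163.7 and 198.1 CPM in the knockouts and 109.4 and 139.0 CPM in the controls, groups that did not overlap, with a log2 fold change of 0.54 (interval −0.036 to 1.12). Errfi1 and Sgk1 had log2 fold changes of 0.43 and −0.36.

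Ratios of clock genes within a library do not depend on scaling between libraries. The TPM ratio of Dbp to Bmal1, a pair with opposite daily timing, was 15.99 and 9.79 in knockouts 1 and 2, against 7.89 and 13.3 in controls 1 and 2. The groups overlapped, and the highest library was 2.03 times the lowest. The ratio of Per3 to Bmal1 was 4.10 and 2.15 in the knockouts and 2.34 and 4.98 in the controls, again with 1 high and 1 low library in each group.

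The ratio of Per2 to Bmal1 was 3.75 and 6.26 in the knockouts, against 3.33 and 3.52 in the controls. It was the only one of the 8 ratios computed in which the groups did not overlap. Among single genes tested, the groups did not overlap in 25.3% on the CPM scale. Bmal1 was nearly level, so this ratio largely repeats the Per2 values and is no separate result. The mean log2 difference of Per2 to Bmal1, knockout minus control, was 0.50, and it was 0.13 without knockout 2. The widest range was that of Dbp to Nfil3, an activator and a repressor of the same element, at 2.16 and 0.677 in knockouts 1 and 2, against 0.422 and 1.78 in controls 1 and 2. Its highest library was 5.13 times its lowest. Dbp RNA exceeded Nfil3 RNA per length in knockout 1 and control 2, and Nfil3 exceeded Dbp in knockout 2 and control 1.

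**Figure D4:**
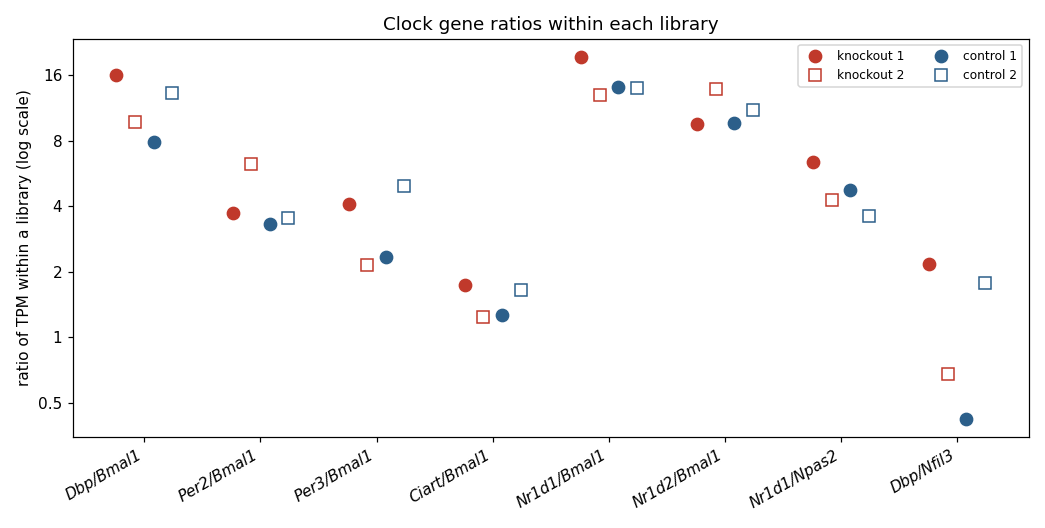
TPM ratios of 8 pairs of clock genes within each library (y axis, log scale) for knockout 1 and 2 (red, filled circle and open square) and control 1 and 2 (blue, likewise). Dbp/Nfil3 spans 0.422 to 2.16 with 1 library of each group at either end, and Per2/Bmal1 is highest in knockout 2 at 6.26.

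The genes whose pattern over the 4 libraries was most like that of Dbp were 4931403E22Rik, Gm50103, Prrt1, Cd300lg and D630003M21Rik, of 13309 genes that averaged 5 CPM or more. Likeness was the Euclidean distance between centred log2 CPM profiles, and these 5 lay at 0.030 to 0.11. Among clock genes the distances from Dbp included 0.34 for Usp2, 0.39 for Hlf, 0.40 for Ciart and 0.57 for both Per3 and Nr1d1, while Nfil3 lay at 1.94. Genes closest to Bmal1, of 13308, included Rnf185, Mau2, Zfp563 and Rfxank, at 0.016 to 0.021. Over 4 libraries these names are a description only.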

How the data were processed

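Whole uterus RNA was read as paired ends of 150 bases, with base calls converted by bcl2fastq 2.17, per the series' design text. Trimmomatic, STAR, the build GRCm39 and featureCounts are named per the submitters' processing notes. For versions, annotation release and strand setting, nothing is given in the sources used here, so values of genes that overlap others are uncertain. The authors deposited raw counts for 57186 genes, and a TPM table of 19991 genes. On checking, genes in the TPM table had total counts of at least 51 and genes left out at most 50. The deposited TPM equals count per length, rescaled over the genes kept. The files also give gene length.

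The test was edgeR 4.0.16 in R 4.3.3, quasi-likelihood, with TMM factors, filterByExpr (minimum count 10, minimum total 15; 20950 genes kept, all 10 members among them) and Benjamini-Hochberg adjustment over all genes. Each standard error is the log2 fold change over the square root of its F statistic, and intervals are 95%. Log2 CPM used a prior count of 2. Alternatives were RLE and upper-quartile factors, 2 other filters, DESeq2 1.42.0, limma 3.58.1 (voom on counts, trend on log2(TPM + 1) and log2(TPM + 0.1)), a replicate block and leaving out each library. The procedure was tested on simulated counts with 200 changed genes. No pair of libraries was within sampling noise (lowest chi-square per degree of freedom 40.9). The members and lists were chosen with earlier results of these data known. Named genes are the members, Bmal1, Npas2, Nfil3, Tef, the 3 genes with the smallest p of each other list, and the genes of most similar pattern, some of which are not reported here. Hlf and Rora fall under the list rule, while Thra, Sphk2 and Usp2 were named after their values were seen. Sequences matched by symbol, with Bmal1 as Arntl.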

Additional observations from a re-analysis of the deposited data

How the results depend on the processing

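In every alternative, 0 of 10 clock genes and 0 of 45 other clock-related genes passed, including DESeq2, limma-voom and the fits without 1 library. The count of all genes passing, 1 in the main test, was 54 with no low-count filter, 90 with DESeq2, 0 with limma-voom (602 at an unadjusted p under 0.05), 3 with log2(TPM + 1), 6 with log2(TPM + 0.1), and 16 to 49 without 1 library. Gaps between libraries 1 and 2 tended to run oppositely in the groups (Pearson r = −0.44 across 20950 genes, which are not independent replicates). The labels state no pairing of libraries by number, and this correlation cannot show whether samples were paired. With the replicate block 32 genes passed, and with the crossed pairing, chosen after seeing the data, 37. The cause of these differences was not tested. Of 140 member fold changes under alternatives, 133 kept their sign and 7 turned, all on leaving out 1 library. Leaving out 1 library gave ranges of −0.62 to 0.53 for Per3, −0.29 to 0.94 for Cry1, −0.091 to 0.58 for Nr1d2, −0.077 to 0.36 for Ciart and −0.17 to 0.095 for Clock. It gave −0.68 to 1.29 for Fbxl21, −0.65 to 0.12 for Wee1, −0.041 to 0.45 for Tspo, −0.27 to 0.16 for Npas2 and −0.78 to 0.65 for Nfil3. Of the 8 within-library ratios, 6 turned sign in the knockout minus control difference on leaving out 1 library, with ranges of −0.089 to 0.66 for Dbp/Bmal1, −0.75 to 0.34 for Per3/Bmal1 and −0.56 to 1.52 for Dbp/Nfil3, while Per2/Bmal1 ran from 0.13 to 0.87. The lowest count of any member in any library was 163, for Ciart in knockout 2.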
